A study of Mus musculus with 6 samples.

Results

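The collagen chain genes encode the polypeptides that assemble, as trimers, into collagen. They were taken as every row of the deposited RNA table whose symbol reads Col, a number, the letter a and a number, which gave 44 genes of the 18180 used here. All 44 had values, and 43 were tested, which took a value of 1 or more in 3 or more libraries; the exception was Col19a1. By class, 11 chains were fibrillar, 8 belonged to basement membranes, 4 were transmembrane and 21 fell in other classes.

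RNA was sequenced in bulk from tumour cells sorted out of orthotopic pancreatic ductal adenocarcinomas (PDAC), which were collected from C57BL/6 mice after about 10 to 14 days. There were 3 libraries titled KPC and 3 titled KPSC. Their genotype labels read Setd2 knockout under the KPC titles and wild type under the KPSC titles, although an added letter in a title more often marks an added allele. The titles therefore name the groups here, and genotype sets no direction. The labels spell out neither name, nor any Cre driver, the markers of the sort, the age or sex of the mice, or whether a group came from 1 clone or from pooled animals. Because the labels do not tie the libraries to separate mice, each p-value measures the spread between these libraries, which may be technical.

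Each collagen chain carries stretches of a 3-residue repeat that starts with glycine, the one residue small enough for the core of the triple helix. Fibrillar collagens (types I, II, III, V, XI, XXIV and XXVII) have a long helix and form the fibrils of connective tissue. Type IV builds the network of basement membranes, types XV and XVIII (the multiplexins) lie in or beside them, and the transmembrane collagens sit on cell surfaces. In PDAC the fibrillar collagens of the dense stroma are known as products chiefly of fibroblasts, and type IV as a product of epithelial and endothelial cells too.

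That repeat shows in the coding sequence, and these exons are printed because they display what the genes of this family share. Among the coding exons of the longest GENCODE M21 transcript of each chain, 47% were exactly 54 bases long in the fibrillar genes (305 of 649), beside 4.24% in the basement membrane genes (16 of 377). Of those 305 exons, 302 started in frame with a glycine codon (GGN) and had another at each following triplet of codons. The first such exon of the type I chains and of the type III chain is given 5′ to 3′ with the 6 glycine codons that open each triplet of codons in capitals; the places are chr11:94939904-94939957 (exon 8, plus strand), chr6:4515481-4515534 (exon 8, plus strand) and chr1:45325360-45325413 (exon 6, plus strand) in GRCm38, all coding exons.
Col1a1: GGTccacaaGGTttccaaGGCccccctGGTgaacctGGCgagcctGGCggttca
Col1a2: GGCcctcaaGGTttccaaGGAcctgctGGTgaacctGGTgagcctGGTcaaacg
Col3a1: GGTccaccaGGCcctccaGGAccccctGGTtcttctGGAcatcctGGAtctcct
The longest unbroken run of such glycine triplets was 216 to 344 triplets in the fibrillar chains, 30 to 66 in the basement membrane chains and 40 to 56 in the transmembrane chains. Col15a1 and Col18a1, which carry the clearest results below, had the shortest runs of the basement membrane class, 30 triplets each.

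The libraries held 14662710 to 17746969 reads over the genes used. Values are normalised reads, the authors' read counts divided by 1 size factor per library, and levels between genes are compared only per kilobase of the deposited gene length. Setd2 stood at 1338, 1099 and 1046 normalised reads in KPC and at 859, 908 and 1042 in KPSC (replicates 1, 2 and 3 in each case, as everywhere below). Setd2 did not pass the test between KPSC and KPC described below (log2 fold change -0.31, limma adjusted p = 0.148). KPSC replicate 3 stood apart, correlating at 0.877 and 0.892 with the other KPSC libraries, which correlated at 0.989 with each other (Pearson, across genes averaging 50 or more normalised reads, log2 scale). Acinar enzyme genes, which mark normal pancreas, held 2.47%, 0.953% and 7.24% of reads in KPC and 18.4%, 9.52% and 0.393% in KPSC, and none of 17 passed (14 higher without KPSC replicate 3). Against the labelled tumour cells, the epithelial markers Epcam (1559 to 7510 normalised reads) and Krt19 (10222 to 28261) were present in all 6 libraries, but fibroblast, endothelial and leukocyte markers were present in all of them too, so collagen reads cannot be assigned to tumour cells alone.

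Most collagen chains did not pass the test between KPSC and KPC. Of 43 chains tested, 2 rose in KPSC, Col18a1 and Col6a3, and 3 fell, Col15a1, Col27a1 and Col2a1 (limma on log2(value + 1), Benjamini-Hochberg adjusted p below 0.05 over all 16737 genes tested). That is 11.6% of the chains, beside 14.4% of all genes tested (7.61% called higher and 6.76% lower), so the chains were called about as often as genes at large. The groups did not overlap for 9 chains (20.9%), beside 34.8% of all genes. The median log2 fold change was -0.05 over the chains, beside 0.01 over all genes. In these bulk libraries fewer cells of a type and less RNA per cell cannot be told apart.

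**Figure D1:**
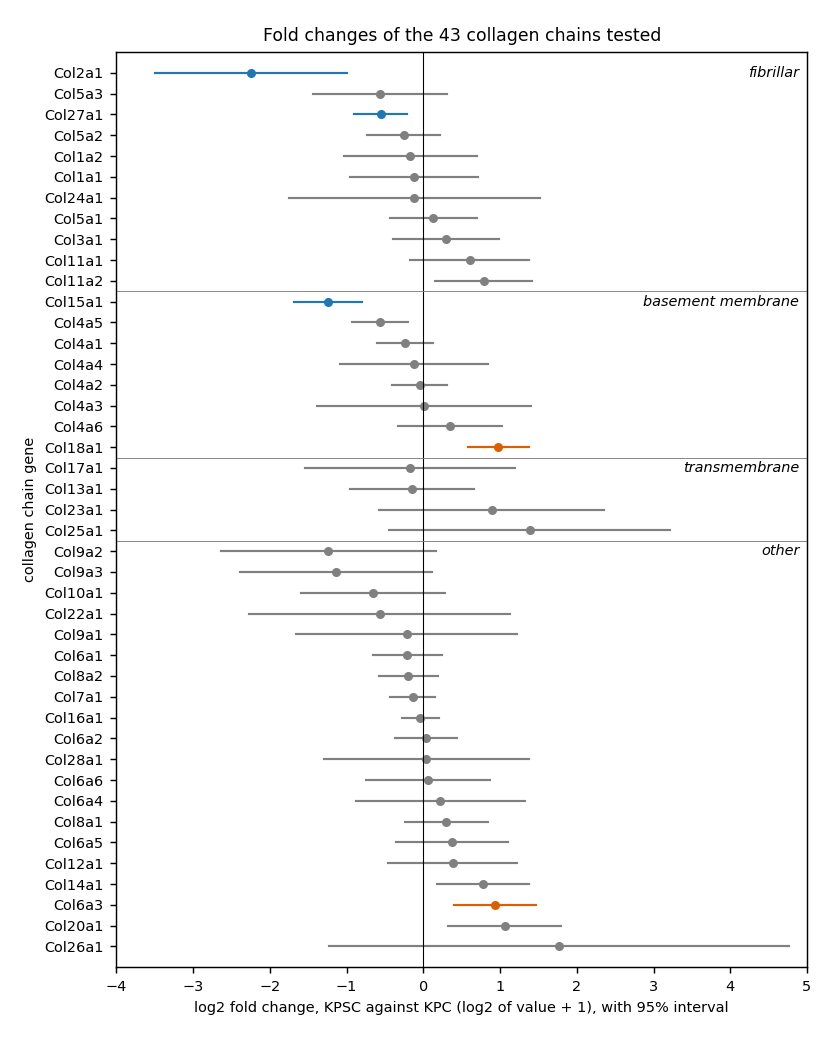
Log2 fold change of KPSC against KPC for the 43 collagen chains tested, on the log2(value + 1) scale (x axis), with the 95% interval of the limma fit as a bar and chains grouped by class from top to bottom. Orange marks Col18a1 and Col6a3 (adjusted p below 0.05, higher in KPSC), blue marks Col15a1, Col27a1 and Col2a1 (lower), and the grey chains did not pass.

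The calls of Col18a1 and Col15a1 held on leaving out each library in turn, and the other calls did not. Dropping each KPC library in turn (replicate 1 first) gave 1, 1 and 2 higher chains and 1, 1 and 1 lower ones. Dropping each KPSC library gave 2, 1 and 2 higher chains and 2, 1 and 3 lower ones. Over all genes, calls numbered 2406 with all libraries, 3051 without KPSC replicate 3 and 1250 to 1403 without any other single library. Counts given for any gene list without KPSC replicate 3 are to be read beside that rise. With edgeR 5 of 34 chains tested were called, beside 17.3% of its genes, and with DESeq2 7 of the 38 chains given an adjusted p, beside 20.2%. Both called Col18a1, Col6a3, Col15a1, Col27a1 and Col4a5, and DESeq2 also called Col14a1 and Col20a1. Neither called Col2a1. The authors' deposited table called 7 of the 44 chains at an adjusted p below 0.05, beside 16.2% of the 18180 genes. It gives Col18a1, Col6a3, Col14a1 and Col20a1 as higher and Col15a1, Col27a1 and Col4a5 as lower. Col14a1 (limma adjusted p = 0.0853), Col20a1 (0.0627) and Col4a5 (0.0529) did not pass with limma. Without any adjustment, 9 of the 43 chains (20.9%) had p below 0.05, beside 29% of all genes tested, a lower share.

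The fibrillar chains were the most abundant class, and none of the large ones differed beyond the spread. Per kilobase, Col1a1 led all chains with 8029 normalised reads in KPC and 7836 in KPSC. Col3a1 followed with 4589 and 5676 per kilobase, then Col1a2 with 3371 and 3259. Their order between neighbours rests on the deposited length, since that of Col1a2 (12426 bases) is long beside its 4116 coding bases.

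Col1a1, the chain that supplies most of each type I trimer, stood at 52849, 54822 and 50411 normalised reads in KPC and at 34820, 42195 and 77259 in KPSC. Its partner Col1a2 stood at 39754, 45423 and 40496 in KPC and at 26633, 29398 and 65456 in KPSC. For both chains KPSC replicates 1 and 2 lay below every KPC library and KPSC replicate 3 above them all, so that the group means nearly coincided. The means of Col1a1 were 52694 ± 2210 and 51425 ± 22675 (SD, n = 3), that is, -0.12 on the log2 scale (95% interval -0.95 to 0.71, limma adjusted p = 0.866). Col1a2 had -0.17 (-1.03 to 0.69, limma adjusted p = 0.815). The number of Col1a1 reads per Col1a2 read was 1.33, 1.21 and 1.24 in KPC and 1.31, 1.44 and 1.18 in KPSC, so the chains moved together across libraries. Such ratios within a library do not depend on how libraries are scaled. The 11 chain pairs examined were chosen after the values were seen, and no test was run on them. The groups did not overlap for 5 of the 11, beside 34.8% of all genes taken singly. No such share was computed for pairs of other genes. Col18a1 to Col15a1 and Col6a3 to Col6a1, among those 5, hold called chains. Overlapping pairs whose ratios are not printed were Col5a3 to Col5a1, Col11a2 to Col11a1, Col4a5 to Col4a1 and Col8a1 to Col8a2.

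Col3a1, the type III chain found beside type I in soft tissue, stood at 43519, 51640 and 39970 in KPC and at 43661, 56572 and 66910 in KPSC (log2 fold change 0.29, 95% interval -0.39 to 0.98, limma adjusted p = 0.58). It did not share the low level of the type I chains in KPSC replicates 1 and 2. Its reads per Col1a1 read were 0.823, 0.942 and 0.793 in KPC and 1.25, 1.34 and 0.866 in KPSC, and the groups overlapped.

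The chains of type V, which start and narrow type I fibrils, did not pass either. Col5a1 had 5955, 7303 and 4684 normalised reads in KPC and 4896, 6104 and 8932 in KPSC. Col5a2 had 7319, 8467 and 6102 in KPC and 5072, 5417 and 8045 in KPSC. Reads of Col5a1 per Col5a2 read were 0.814, 0.863 and 0.768 in KPC and 0.965, 1.13 and 1.11 in KPSC, higher in every KPSC library. Col5a3, the rarer chain of this type, had 879, 1622 and 974 in KPC and 557, 559 and 1379 in KPSC. Without KPSC replicate 3 it passed as lower (log2 fold change -0.999, limma adjusted p = 0.017), against -0.56 (adjusted p = 0.379) with all libraries.

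Among the minor fibrillar chains, Col27a1 fell and the others of more than a few reads did not pass. Col27a1, known from cartilage, had 1388, 1215 and 1101 normalised reads in KPC and 682, 886 and 961 in KPSC, every KPSC library below every KPC library. Its log2 fold change was -0.56 (SE 0.15, limma adjusted p = 0.0442). The call was lost without KPC replicates 1, 2 and 3 (adjusted p = 0.133, 0.113 and 0.0708) and without KPSC replicates 1 and 2 (0.107 and 0.0919). Col11a1, a type XI chain known from cartilage and from tumour stroma, had 238, 273 and 124 in KPC and 227, 294 and 427 in KPSC (0.60, adjusted p = 0.284). Its partner Col11a2 had 43.7, 63.9 and 71.2 in KPC and 80.9, 123 and 105 in KPSC, without overlap (0.79, adjusted p = 0.0977). Col24a1 stood at 75.5, 79.1 and 36.7 in KPC and at 25.4, 35.8 and 186 in KPSC, again with KPSC replicate 3 highest. Col2a1, the main collagen of cartilage, passed as lower on very few reads. It had 6, 7 and 4 reads in KPC and 1, 0 and 0 in KPSC, 18 in all, and its fitted log2 fold change of -2.25 depends on the pseudocount (limma adjusted p = 0.0314). Only dropping KPSC replicate 1 kept that call (adjusted p = 0.0957, 0.11 and 0.0807 without KPC replicates 1, 2 and 3, and 0.0966 and 0.052 without KPSC replicates 2 and 3), and edgeR's filter left the gene out.

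**Figure D2:**
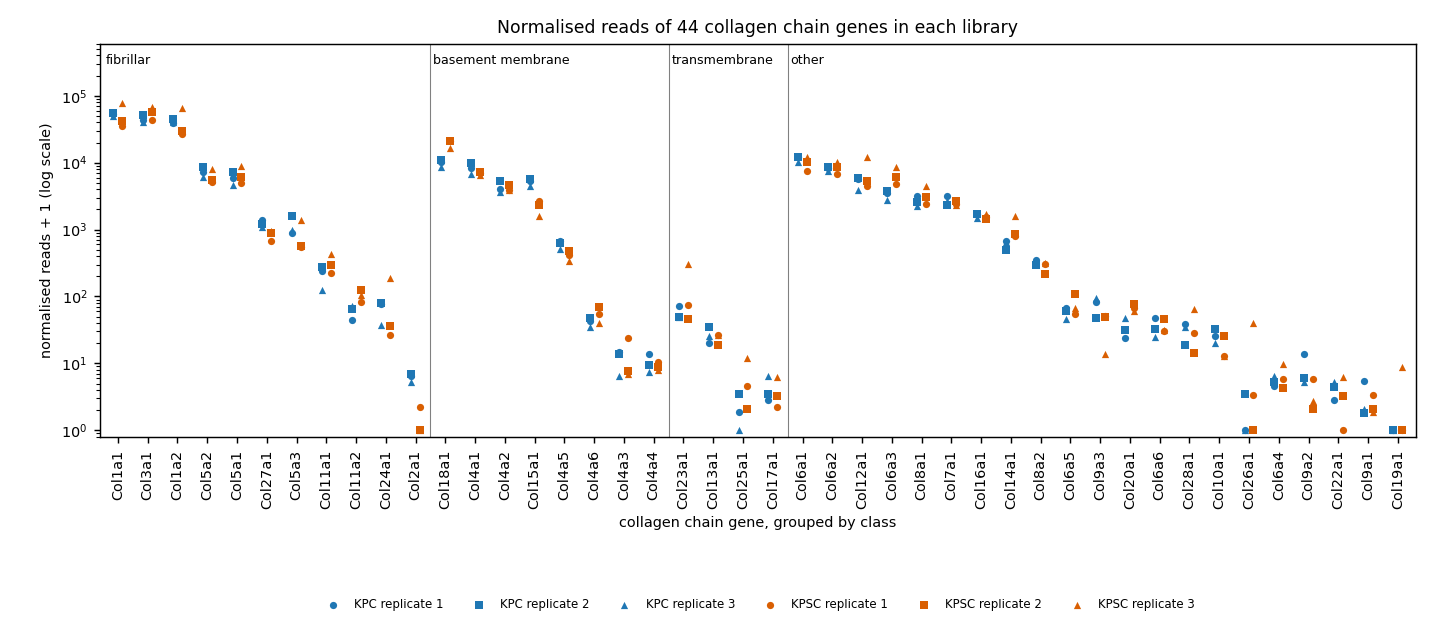
Normalised reads plus 1 (log scale) of each of the 44 collagen chain genes in the 6 libraries, with KPC in blue, KPSC in orange and the marker shape giving the replicate. Within each class the chains run from the highest to the lowest mean, from Col1a1 at 34820 to 77259 normalised reads down to chains with 0 to 10 reads, and for Col18a1 and Col15a1 the groups stand clear of each other.

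In the basement membrane class the multiplexin chains moved in opposite directions. Col18a1 encodes the chain of type XVIII collagen, a heparan sulphate proteoglycan whose end fragment is endostatin. It had 10269, 10879 and 8585 normalised reads in KPC and 20902, 20902 and 16776 in KPSC, so that the lowest KPSC library exceeded the highest KPC library. The means were 9911 ± 1188 and 19527 ± 2383 (SD, n = 3), 1.97-fold higher in KPSC (log2 fold change 0.98, SE 0.17, limma adjusted p = 0.00911). On leaving out each library the log2 fold change stayed between 0.88 and 1.08 and the adjusted p at 0.045 or less. Per kilobase, Col18a1 moved from 1412 to 2781 normalised reads.

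Col15a1 encodes the chain of type XV collagen, which ties basement membranes to the fibrils beneath and is known from vessels, muscle and nerve. It had 5261, 5619 and 4443 normalised reads in KPC and 2649, 2339 and 1592 in KPSC, again without overlap. The means were 5107 ± 603 and 2193 ± 543 (SD, n = 3), 2.33-fold lower in KPSC (log2 fold change -1.24, SE 0.19, limma adjusted p = 0.00602). The range on leaving out each library was -1.40 to -1.03, with an adjusted p of 0.0301 or less. Reads of Col18a1 per Col15a1 read were 1.95, 1.94 and 1.93 in KPC and 7.89, 8.94 and 10.5 in KPSC. The KPC libraries were thus nearly equal in this ratio, and every KPSC library lay far above them. Since the pair joins a chain called higher with a chain called lower, that separation follows from the calls and adds no support to them.

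None of 10 endothelial markers passed the test, and their summed level was 5520 to 6793 normalised reads in KPC and 5437 to 6547 in KPSC. Of 10 epithelial markers 6 rose and none fell (8 without KPSC replicate 3, 6 without KPC replicate 2 and 3 without any other library), with a summed level of 58294 to 73931 in KPC and 116735 to 128865 in KPSC. The part of these cell types in the change of Col18a1 and Col15a1 was not tested. Genes around them did not move alike. Within 1 megabase of Col18a1 (chromosome 10), 21 genes averaging 50 or more normalised reads had a median log2 fold change of -0.01, with 1 higher and 4 lower. Within the same distance of Col15a1 (chromosome 4), 13 genes had a median of 0.04, with 2 higher and none lower. The shares over all genes tested were 7.61% higher and 6.76% lower. Col15a1 shares 14 exonic bases with the antisense gene Gm12426, and without stranded counting reads of the pair cannot be told apart.

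The promoter windows of these genes are printed because the upstream Col18a1 window differs from the others in a GC-rich element. Each runs 5′ to 3′ from 250 bases before to 50 bases after a RefSeq transcript start (GRCm38.p6), with GGGCGG or its complement CCGCCC, the GC box that factors of the Sp family bind, in capitals. Col18a1 is known to be transcribed from alternative promoters, and RefSeq gives 2 windows, chr10:77166481-77166780 and chr10:77113656-77113955, both on the minus strand. The Col15a1 window is chr4:47207762-47208061 on the plus strand. It ends before the deposited start of Col15a1 at 47208161, whereas the upstream Col18a1 window covers the deposited start of its gene. The Col15a1 window thus holds no base of the deposited gene span.
Col18a1 upstream start: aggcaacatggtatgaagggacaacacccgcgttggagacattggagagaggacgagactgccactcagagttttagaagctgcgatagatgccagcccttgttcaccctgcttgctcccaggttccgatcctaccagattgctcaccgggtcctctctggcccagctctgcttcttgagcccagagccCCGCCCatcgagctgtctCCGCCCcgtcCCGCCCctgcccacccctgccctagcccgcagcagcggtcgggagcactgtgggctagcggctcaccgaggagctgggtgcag
Col18a1 downstream start: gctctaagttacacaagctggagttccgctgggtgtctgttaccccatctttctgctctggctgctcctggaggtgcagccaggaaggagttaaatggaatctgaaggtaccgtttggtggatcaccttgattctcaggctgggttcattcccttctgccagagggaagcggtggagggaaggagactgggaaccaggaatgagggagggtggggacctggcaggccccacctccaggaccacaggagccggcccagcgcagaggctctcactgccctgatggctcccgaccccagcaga
Col15a1: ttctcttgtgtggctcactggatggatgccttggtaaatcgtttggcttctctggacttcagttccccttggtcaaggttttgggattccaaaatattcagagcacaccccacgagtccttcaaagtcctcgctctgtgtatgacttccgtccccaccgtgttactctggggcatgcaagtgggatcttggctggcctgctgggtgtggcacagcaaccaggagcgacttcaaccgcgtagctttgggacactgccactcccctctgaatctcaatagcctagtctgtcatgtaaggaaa
The upstream Col18a1 window held 3 GC boxes, and the downstream Col18a1 window and the Col15a1 window held none. Windows were available for 35 of the 44 genes (38 windows). Of these 38, 60.5% held a GC box, beside 35.7% of all 32851 RefSeq windows. The shares were 34.2% and 37.4% for CCAAT or ATTGG, and 13.2% and 13.6% for TATAAA or TTTATA. Both strands were searched, and matches to different motifs were counted separately and may share bases. A match describes the letters and is not a bound site, and gene-level values do not say which Col18a1 start was used.

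None of the 6 type IV chains, which form the basement membrane network itself, passed the limma test. Col4a1 had 8304, 9860 and 6758 normalised reads in KPC and 6889, 7357 and 6601 in KPSC (log2 fold change -0.24, 95% interval -0.60 to 0.12, limma adjusted p = 0.366). Col4a2 had 4079, 5305 and 3609 in KPC and 3962, 4556 and 3923 in KPSC (-0.05, -0.40 to 0.31, limma adjusted p = 0.879). These chains join in 1 trimer, and their genes lie head to head on chromosome 8, with deposited spans that overlap by 22 bases. Reads of Col4a1 per Col4a2 read were 2.04, 1.86 and 1.87 in KPC and 1.74, 1.61 and 1.68 in KPSC, a narrow range in which every KPSC library was lower. Their promoter windows are printed as the shared stretch from which the pair is read in opposite directions, and they have 78 bases in common. They are chr8:11312777-11313076 on the minus strand for Col4a1 and chr8:11312555-11312854 on the plus strand for Col4a2, with GC boxes in capitals as above.
Col4a1: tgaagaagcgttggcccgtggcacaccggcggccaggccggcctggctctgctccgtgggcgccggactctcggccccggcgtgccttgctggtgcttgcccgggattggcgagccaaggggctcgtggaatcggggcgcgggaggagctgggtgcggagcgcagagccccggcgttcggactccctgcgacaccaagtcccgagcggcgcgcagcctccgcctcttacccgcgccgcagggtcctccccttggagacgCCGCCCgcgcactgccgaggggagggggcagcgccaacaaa
Col4a2: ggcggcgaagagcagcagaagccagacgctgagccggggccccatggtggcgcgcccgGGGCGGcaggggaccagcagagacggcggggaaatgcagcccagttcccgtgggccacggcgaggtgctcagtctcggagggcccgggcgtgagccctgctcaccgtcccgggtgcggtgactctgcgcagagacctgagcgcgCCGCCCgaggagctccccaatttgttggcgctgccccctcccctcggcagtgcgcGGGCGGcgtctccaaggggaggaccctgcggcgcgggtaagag
The Col4a1 window held 1 GC box and the Col4a2 window 3. The Col4a1 box lies in the shared bases and is the last Col4a2 box read from the other strand. The GC content of the windows was 74% and 73.7%, beside a median of 52.7% over all windows.

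Col4a5, a chain of specialised basement membranes such as that of the kidney glomerulus, was lower in KPSC without reaching the threshold. It had 670, 626 and 518 normalised reads in KPC and 420, 475 and 334 in KPSC, without overlap (log2 fold change -0.57, SE 0.16, limma adjusted p = 0.0529). It passed with edgeR (adjusted p = 0.0492), with DESeq2 (adjusted p = 0.0166) and in the authors' deposited table (adjusted p = 0.018). Its head-to-head neighbour Col4a6 had 42.8, 46.3 and 34.5 in KPC and 53.1, 68.2 and 39.7 in KPSC (0.35, limma adjusted p = 0.489). Col4a3 and Col4a4, the remaining head-to-head pair, held 5.39 to 22.9 and 6.47 to 12.7 normalised reads over all libraries.

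**Figure D3:**
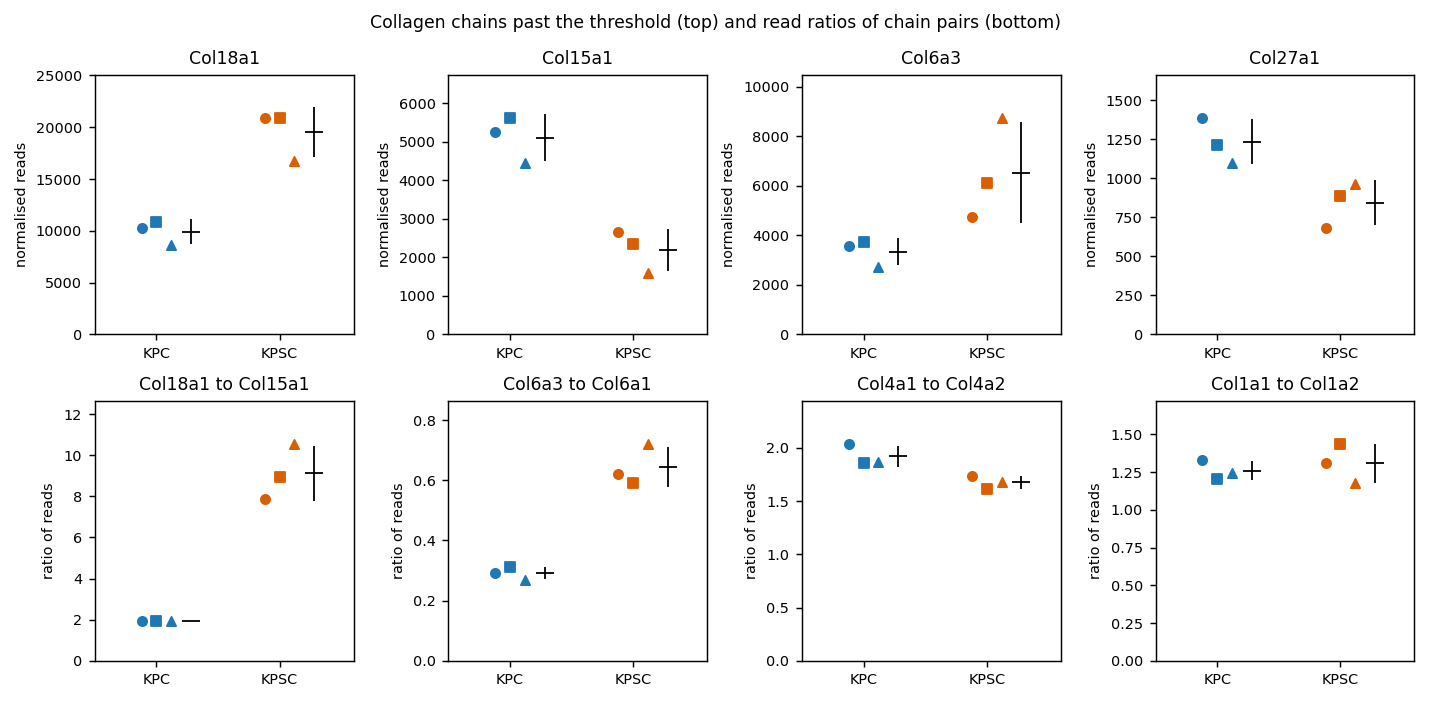
Normalised reads of Col18a1, Col15a1, Col6a3 and Col27a1 (upper row) and, within each library, reads of one chain divided by reads of another (lower row), with 1 point per library, KPC in blue and KPSC in orange, and the mean with its SD (n = 3) beside them. The ratio of Col18a1 to Col15a1 lies at 1.93 to 1.95 in KPC and at 7.89 to 10.5 in KPSC, that of Col6a3 to Col6a1 at 0.27 to 0.312 and at 0.59 to 0.72, while Col1a1 to Col1a2 overlaps between groups. The pairs were chosen after the values were seen.

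Transmembrane collagens were scarce in every library, and none of the 4 passed. Col23a1, found on the surface of some carcinoma cells, had 71, 47.9 and 48.5 normalised reads in KPC and 74.9, 45.8 and 310 in KPSC. Its high mean in KPSC thus came from replicate 3 (log2 fold change 0.89, limma adjusted p = 0.412), and without that library the log2 fold change was 0.09. Col13a1, of cell adhesion sites, had 17.9 to 34.5 over all libraries. Col25a1, known from neurons, had 0 to 13 reads, and Col17a1, the hemidesmosome collagen of basal epithelia, had 1 to 6 reads, and neither passed (limma adjusted p = 0.298 and 0.883).

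Of the beaded filament collagens of type VI, which surround cells in a microfibril network, Col6a3 rose and its partners did not pass. Col6a3 had 3553, 3745 and 2722 normalised reads in KPC and 4731, 6093 and 8741 in KPSC, without overlap. The means were 3340 ± 544 and 6522 ± 2039 (SD, n = 3), 1.95-fold higher in KPSC (log2 fold change 0.93, SE 0.23, limma adjusted p = 0.0333). The call was lost without KPC replicates 1, 2 and 3 (adjusted p = 0.0821, 0.0677 and 0.114) and without KPSC replicate 2 (0.0886), at log2 fold changes of 0.79 to 1.02. Col6a1 had 12155, 12015 and 10081 in KPC and 7599, 10332 and 12137 in KPSC (-0.21, adjusted p = 0.542). Col6a2 had 8420, 8674 and 7498 in KPC and 6707, 8545 and 10250 in KPSC (0.03, adjusted p = 0.926).

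These 3 chains form 1 heterotrimer. Reads of Col6a3 per Col6a1 read were 0.292, 0.312 and 0.27 in KPC and 0.623, 0.59 and 0.72 in KPSC, without overlap. Those of Col6a2 per Col6a1 read were 0.693, 0.722 and 0.744 in KPC and 0.883, 0.827 and 0.845 in KPSC, a smaller difference in the same direction. Col6a3 lies on chromosome 1, where 15 genes within 1 megabase had a median log2 fold change of 0.43, with 6 higher and none lower. Of all genes tested, 7.61% were called higher and 6.76% lower. Col6a1 and Col6a2 lie as neighbours on chromosome 10, where 28 such genes around each had medians of 0.09 and 0.05, with 3 higher and 2 lower in each case. The part of the chromosomal neighbourhood in the change of Col6a3 was not tested. The further type VI chains Col6a4, Col6a5 and Col6a6, in tandem on chromosome 9, held 3.35 to 8.64, 45.3 to 109 and 23.7 to 46.4 normalised reads, and none passed.

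Among the fibril-associated collagens (FACIT), which sit on the surface of fibrils, 8 of 9 were tested and none passed the limma test. DESeq2 called Col14a1 and Col20a1, as did the authors' deposited table. Col14a1, which limits fibril thickening, had 684, 496 and 643 normalised reads in KPC and 814, 855 and 1594 in KPSC, without overlap (log2 fold change 0.78, limma adjusted p = 0.0853). Col20a1 had 22.7, 30.3 and 46.4 in KPC and 66.4, 76 and 60.5 in KPSC, also without overlap (1.06, adjusted p = 0.0627, or 0.0496 without KPC replicate 3), and it shares 79 exonic bases with another annotated gene on its strand. Col12a1, which is laid down in mechanically loaded and tumour stroma, had 5656, 5846 and 3968 in KPC and 4457, 5269 and 12301 in KPSC (0.38, adjusted p = 0.552). Col16a1 was the steadiest of the larger chains, at 1686, 1699 and 1479 in KPC and 1538, 1450 and 1738 in KPSC, with a 95% interval of -0.29 to 0.20 for its log2 fold change. The chains of type IX, a cartilage collagen, held 0.841 to 4.55 (Col9a1), 1.12 to 12.7 (Col9a2) and 13.0 to 92.7 (Col9a3) normalised reads, and Col22a1 held 0 to 5.18. Col19a1 had 9 reads in KPSC replicate 3 and 0 in each other library, and was not tested.

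The remaining chains did not pass. Col7a1, which makes the anchoring fibrils under stratified epithelia, had 3157, 2349 and 2692 normalised reads in KPC and 2390, 2689 and 2332 in KPSC (log2 fold change -0.14, 95% interval -0.43 to 0.16). Col8a1, a short-chain network collagen of vessel walls and the eye, had 3164, 2554 and 2234 in KPC and 2393, 3115 and 4524 in KPSC (0.30, adjusted p = 0.454). Its partner Col8a2 had 347, 295 and 306 in KPC and 304, 219 and 313 in KPSC (-0.20, adjusted p = 0.498). Col10a1, known from growth plate cartilage, held 12.1 to 32, Col28a1 13.4 to 64.8, and Col26a1 had 46 reads in KPSC replicate 3 beside 0 to 3 in the others.

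KPSC replicate 3 set much of the spread among the collagens. Of 22 chains that averaged 100 or more, it was the highest of the 6 libraries for 11 (50%) and the lowest for 4, whereas among all 11102 genes of that level it was the highest for 24.1%. All chains together held 1.53%, 1.62% and 1.26% of reads in KPC and 0.903%, 1.27% and 2.14% in KPSC. The means were 1.47% ± 0.184 and 1.44% ± 0.633 (SD, n = 3), and the groups overlapped. These shares of all reads also depend on other abundant genes, such as the acinar ones (18.4% of reads in KPSC replicate 1 and 0.393% in replicate 3). In normalised reads the chains summed to 219898, 241264 and 199910 in KPC and 182857, 216253 and 313534 in KPSC. Type I chains made up 42.1%, 41.6% and 45.5% of collagen reads in KPC and 33.6%, 33.1% and 45.5% in KPSC. The basement membrane class made up 13%, 13.4% and 12% in KPC and 19.1%, 16.5% and 9.34% in KPSC.

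Summed fibroblast and pericyte markers, like the type I chains, were lowest of the 6 libraries in KPSC replicate 1 and highest in KPSC replicate 3. Not every single marker followed this order, such as Dpt at 396, 734 and 597 normalised reads in KPSC. The summed level of 12 fibroblast markers was 14110, 15991 and 15396 normalised reads in KPC and 11083, 13847 and 17548 in KPSC. Of these markers 1 rose, Ly6c1, which endothelial cells also express, and Lum and Loxl1 fell, with a list median of -0.15 (all 12 above 0 in every library). Without KPSC replicate 3, 5 fibroblast markers were lower, but calls over all genes rose there too, from 2406 to 3051. Dropping KPSC replicate 2 left 1 lower, Loxl1, and dropping any of the other 4 libraries left none. The sum over 9 pericyte and smooth muscle markers was 4156, 6719 and 4767 in KPC and 3844, 4618 and 14112 in KPSC, of which the muscle filament gene Des gave 7737 in KPSC replicate 3 beside 239 and 393 in the other KPSC libraries. None of those 9 passed. Islet markers summed to 8475 to 9743 in KPC and to 218 to 20693 in KPSC, and none of 10 passed. Schwann cell markers summed to 683 to 766 in KPC and 739 to 801 in KPSC, with S100b higher, while Sox10 was at 0 in KPSC replicate 2. Of 6 mesothelial markers, Msln and the epithelial keratin Krt19 rose and Wt1 fell, with Krt19 passing without KPC replicate 2 or KPSC replicate 3 alone and Wt1 without KPSC replicate 2 alone. The mesothelial sum was 14319 to 22165 in KPC and 30973 to 34877 in KPSC. Krt19, also in the epithelial list, gave 10222 to 17263 of it in KPC and 22842 to 28261 in KPSC. Upk3b, Lrrn4 and Upk1b, at 2.42 to 44.6 normalised reads over all libraries, did not pass. Among all genes tested, 7.61% were called higher and 6.76% lower. The part of any of these cell types in the collagen values was not tested.

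**Figure D4:**
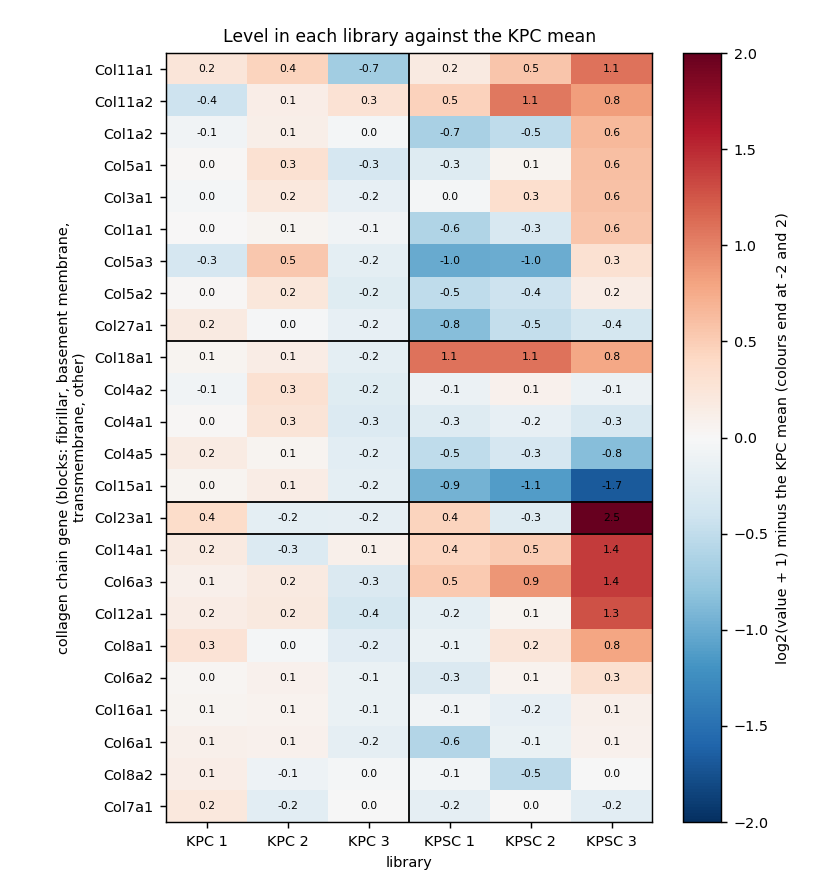
Level of the 24 collagen chains with a mean of at least 100 normalised reads in either group, shown for each library as log2(value + 1) minus the KPC mean of that chain, with red above and blue below. KPSC replicate 3 is red for the type I chains and Col12a1 where KPSC replicates 1 and 2 are blue or pale, whereas Col18a1 and Col6a3 are red and Col15a1 and Col27a1 blue in all 3 KPSC libraries.

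Enzymes that fold and modify collagen in the endoplasmic reticulum changed in part. Of 18 genes, 3 rose and 2 fell (27.8%, beside 14.4% of all genes). The collagen chaperones Fkbp10 and Fkbp14 rose, Fkbp10 from 1602 ± 207 to 3532 ± 225 normalised reads (log2 fold change 1.15, limma adjusted p = 0.00106) and Fkbp14 from 416 ± 9.68 to 579 ± 9.09 (0.48, adjusted p = 0.0134). P3h4, a partner of prolyl and lysyl hydroxylases, rose from 1312 ± 61.1 to 2332 ± 403 (0.81, adjusted p = 0.00815). P4ha1, a prolyl 4-hydroxylase subunit, fell from 3359 ± 625 to 2031 ± 111 (-0.71, adjusted p = 0.0143), and the lysyl hydroxylase Plod2 fell from 1568 ± 362 to 996 ± 111 (-0.63, adjusted p = 0.0464). Serpinh1, the collagen chaperone HSP47, had means of 7691 and 9731 (adjusted p = 0.201). Fkbp14 missed the threshold without KPSC replicate 1 (adjusted p = 0.0511) or 2 (0.051), and P4ha1 without KPSC replicate 1 (0.0543). Plod2 missed it without KPC replicates 1 and 2 (0.116 and 0.113) and KPSC replicates 1 and 2 (0.136 and 0.0976). Lower genes numbered 1, 1 and 2 when each KPC library was dropped in turn, and 0, 1 and 3 for the KPSC libraries.

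For secretion, propeptide cleavage and cross-linking, 4 of 20 genes tested rose and 1 fell (25%, beside 14.4% of all genes). Pcolce, which enhances removal of the carboxyl propeptide of fibrillar procollagens, rose from 3037 ± 305 to 6124 ± 430 normalised reads (log2 fold change 1.01, limma adjusted p = 0.0016). The protease it assists, Bmp1, had means of 4290 and 4182 (adjusted p = 0.86). Among the lysyl oxidases, which cross-link collagen, Loxl3 rose from 1050 ± 81.9 to 1713 ± 262 (0.70, adjusted p = 0.0123) and Loxl1 fell from 2276 ± 62.3 to 1614 ± 195 (-0.50, adjusted p = 0.0212). Pxdn, which cross-links type IV collagen, rose from 2200 ± 254 to 3414 ± 371 (0.63, adjusted p = 0.0149). Without KPC replicate 3 neither Loxl3 (adjusted p = 0.0525) nor Pxdn (0.0515) passed, and 1 gene of the list was higher. The call of Loxl1 was lost without KPC replicates 1, 2 and 3 (0.0595, 0.0644 and 0.0746) and KPSC replicate 1 (0.0589), and without KPSC replicate 3 2 genes were lower.

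Of 11 collagen receptors tested, 2 fell and none rose (18.2%, beside 14.4% of all genes). Itga1, the alpha 1 subunit of an integrin that binds type IV collagen, had 1383, 1756 and 1407 normalised reads in KPC and 505, 497 and 772 in KPSC, without overlap (log2 fold change -1.38, limma adjusted p = 0.00348). Lair1, an inhibitory collagen receptor of leukocytes, had 611, 515 and 552 in KPC and 222, 290 and 348 in KPSC (-0.98, adjusted p = 0.00975). Of 10 leukocyte markers 4 fell and none rose, with a summed level of 18927 to 22618 in KPC and 13429 to 15275 in KPSC, and their part in the change of Lair1 was not tested. Lower leukocyte markers numbered 2, 3 and 1 when each KPC library was dropped in turn, and 1, 2 and 7 for the KPSC libraries. Both receptors passed without each library in turn, and 4 receptors were lower without KPSC replicate 3. Itga2, which pairs with Itgb1 as a receptor for fibrillar collagen, had means of 2513 and 2699 (adjusted p = 0.743), and the receptor kinase Ddr1 3754 and 4197 (adjusted p = 0.536).

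Proteins that bind collagen in the matrix gave 3 genes higher and 1 lower of 19 tested (21.1%, beside 14.4% of all genes), with a median log2 fold change of 0.63. Comp, a cartilage and tendon protein that binds fibrillar collagens, had 2.73, 3.36 and 14 normalised reads in KPC and 73.7, 196 and 72.5 in KPSC (log2 fold change 4.04, limma adjusted p = 0.00625). Matn2 rose from 777 ± 68.7 to 1501 ± 66.7 (0.95, adjusted p = 0.00117) and Fbln1 from 1432 ± 74.5 to 2462 ± 210 (0.78, adjusted p = 0.00259). Lum, the proteoglycan lumican that spaces fibrils, fell from 2723 ± 97.5 to 1811 ± 385 (-0.61, adjusted p = 0.0393). Only dropping KPSC replicate 3 kept that call (adjusted p = 0.0995, 0.101 and 0.122 without KPC replicates 1, 2 and 3, and 0.057 and 0.0742 without KPSC replicates 1 and 2), and without KPSC replicate 3 2 genes were lower.

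Laminins and other non-collagen parts of basement membranes changed in part. Of 21 genes, 6 rose and 1 fell (33.3%, beside 14.4% of all genes). Epithelial markers moved with them (6 of 10 higher, summed level 58294 to 73931 in KPC and 116735 to 128865 in KPSC, as above), and their part in these changes was not tested. Lamb3, a chain of a laminin found under epithelia, had 239, 286 and 280 normalised reads in KPC and 2061, 2176 and 2637 in KPSC (log2 fold change 3.08, limma adjusted p = 4.26e-05), and every KPSC library lay above every KPC library. Lama3, another laminin chain, named after its values were seen, had a log2 fold change of 1.51 (adjusted p = 0.00475). Itga6 and Itgb4 encode an integrin of hemidesmosomes that binds laminin. Itga6 rose from 2043 ± 284 to 9518 ± 1167 (2.22, adjusted p = 0.00016), and Itgb4, also named after its values were seen, rose by 1.50 on the log2 scale (adjusted p = 0.000262). Col7a1 and Col17a1, the collagens of that same junction, did not pass, as given above. Frem1 fell from a mean of 124 to 54.7 (-1.13, adjusted p = 0.0256). Dropping KPC replicates 1 and 3 ended the call (adjusted p = 0.0792 and 0.0794), as did KPSC replicates 1 and 2 (0.0746 and 0.0749), and without KPSC replicate 3 2 genes were lower. The higher genes numbered 6 without each other library and 7 without KPSC replicate 3.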

How the data were processed

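The deposited table holds 25450 rows, of which 18185 have values; 5 rows whose symbols had lost letters were left out. Its values are a signal that behaves as gene read counts divided by a size factor per library, as deposited by the authors: divided by the smallest value above 0 in its column, it gave whole reads for 100% of values, within 0.01. Raw and adjusted p-values by the authors are named as theirs where printed. The submitters' processing notes name mm10 and CASAVA 1.7. Aligner, counting tool, strand handling and the authors' own test: not given in the sources used here.

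Groups were compared in R 4.3.3 with limma 3.58.1, two-sided, using eBayes with its trend option. The fit took log2(value + 1) in all 6 libraries for the 16737 genes that reached 1 in 3 or more of them, and p-values were Benjamini-Hochberg adjusted over all of these, with a threshold of 0.05. A pseudocount of 1 understates changes of low genes. The quasi-likelihood test of edgeR 4.0.16, run on recovered reads, called 2474 of 14293 genes, and DESeq2 1.42.0 was a further alternative. The fits were tested on simulated data. No pair of libraries agreed within sampling noise (the lowest chi-square per degree of freedom was 36.7).

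The collagen genes, their classes, the other gene lists and the tests were chosen with earlier results of these data known. By rule, values per library are given for chains past the threshold or with a mean of at least 100 in either group, and up to 3 called genes per direction from each other list; 1 such gene is not reported here. Chain ratios and chromosomal neighbourhoods were added after the values were seen. Promoter windows come from RefSeq (GRCm38.p6) and exons from GENCODE M21 (GRCm38), whose spans equal the deposited spans for all 44 chains. Tables and figures were made with Python 3.11.15, pandas 2.3.3 and matplotlib 3.10.9.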

Additional observations from a re-analysis of the deposited data

How the results depend on the processing

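The calls of Col18a1 and Col15a1 passed under every alternative run. Of all genes, 2406 were called, against 1272 with library size scaling, 1543 without a variance trend and 1250 to 3051 on leaving out each library (3051 without KPSC replicate 3). Collagen chains called higher, 2 in number, were 1 with library size scaling, 1 without a variance trend, 4 with DESeq2 and 1 to 2 on leaving out each library. The 3 chains called lower were 1 to 3 on leaving out each library. Library size scaling moved the median of all genes to -0.18, and there Col5a1 (-0.063) and Col6a2 (-0.16) reversed, chains that never passed. On leaving out each library, other chains that never passed also crossed 0, with ranges of -0.17 to 0.11 for Col4a2, -0.46 to 0.12 for Col1a1, -0.58 to 0.069 for Col1a2, -0.11 to 0.33 for Col5a1, -0.068 to 0.66 for Col12a1, -0.12 to 0.015 for Col16a1 and -0.11 to 0.19 for Col6a2. The cause was not tested. Of the called genes named from the lists of collagen enzymes, receptors, binding proteins and basement membrane proteins, none changed direction. Genes named without a call, such as Bmp1 and Itga2, and the cell type markers were not followed in this way. The median over the chains moved by less than the spread between replicates (0.22).

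With the replicate number as a block, 1014 genes, 1 higher chain and 1 lower chain were called. The values gave no sign of pairing by number: same-numbered libraries deviated from their group means with correlations of -0.12, -0.31 and -0.42. By the same measure, 0 of the 6 correlated best with its own number. With 3 libraries per group and KPSC replicate 3 apart, this cannot exclude a shared animal, batch or day. Chains of a few reads, such as Col2a1 and Col19a1, are limited by depth.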
